A study of Mus musculus with 8 samples.

Results

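The small proline-rich protein genes (Sprr) were followed across 8 expression arrays of dorsal skin from male mice. The members were the genes Sprr1a, Sprr1b, Sprr2b, Sprr2d, Sprr2e, Sprr2f, Sprr2g, Sprr2h, Sprr3 and Sprr4, each taken from probe sets whose annotation gave that 1 symbol. This left 10 genes of 22180, each with 1 probe set. A further 7 probe sets carried a Sprr symbol and were not counted as members, and 5 of those 7 named several genes at once. WT mice were C57BL/6, and KO mice carried the Il22ra1 allele tm1.1Koll on a B6 background. Imiquimod cream (IMQ; 83.3 mg at 5%) was put on back and ear skin on each of days 1 to 7, with vehicle or alloferon cream 6 hours after it in the treatment groups. Imiquimod is a Toll-like receptor agonist used to induce psoriasis-like skin inflammation, and alloferon is a peptide first described in insects. Each group had 1 array, and the arrays form 4 pairs that differ by label in IMQ alone: WT_CTRL with WT_IMQ (the WT pair), KO_CTRL with KO_IMQ (KO plain), KO_CTRL-B with KO_IMQ_B (KO B) and KO_Allo with KO_IMQ_Allo (KO Allo). Groups of 4 mice are described. Pooling of RNA, the meaning of the letter B, the age of the mice and the cream given to the CTRL mice are not given in the sources used here. No number of animals could be assigned to an array, so each p-value reflects how far single arrays scatter, and some of that scatter can be technical.

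Small proline-rich proteins are short precursors of the cornified envelope, the cross-linked protein shell that replaces the plasma membrane of a dying keratinocyte. Transglutaminases join them to loricrin, involucrin and each other, and the proportion of Sprr protein is thought to adjust the mechanical properties of the envelope. In mouse skin several Sprr genes are known to be induced by wounding, irritation and barrier defects. The genes lie together in the epidermal differentiation complex on chromosome 3, and the Sprr2 genes are close copies of each other. Probe sets for such copies can share signal, so differences between single Sprr2 genes are uncertain. RefSeq lists Sprr2g as a transcribed pseudogene.

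All values are log2 expression levels, on which 1 unit is a 2-fold difference. The medians of the arrays lay within 0.05 of each other, and 0 pairs of arrays held identical values. Keratinocyte markers were well represented, with a mean level of 9.70 to 10.22 over the 10 measured of 11 listed. Il22ra1, the targeted gene, read 8.23 and 8.64 on the WT arrays and 8.59 to 9.40 on the arrays labelled KO. It was thus not lower there, and a whole-gene probe set need not cover the altered part. Every WT and KO direction below rests on the labels.

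The sequence before the start of a gene is shown for 7 members: 3 Sprr2 genes that rose together by different amounts, Sprr1b, which rose with them, and Sprr1a, Sprr3 and Sprr4, which did not pass the test. RefSeq's table for GRCm38.p6 had an entry for 9 of the 10 members, and each stretch is the 250 bases before the start used there. Capitals mark matches to AP-1 (TGANTCA), the octamer (ATTTGCAT) and the TATA motif (TATAAA), searched on both strands.
Sprr2d, plus strand, chr3:92338890-92339139: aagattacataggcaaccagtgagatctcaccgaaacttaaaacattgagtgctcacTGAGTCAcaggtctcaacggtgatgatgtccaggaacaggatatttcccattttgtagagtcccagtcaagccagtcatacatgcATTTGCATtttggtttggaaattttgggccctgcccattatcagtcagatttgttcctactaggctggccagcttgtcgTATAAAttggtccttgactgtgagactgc
Sprr2e, plus strand, chr3:92351893-92352142: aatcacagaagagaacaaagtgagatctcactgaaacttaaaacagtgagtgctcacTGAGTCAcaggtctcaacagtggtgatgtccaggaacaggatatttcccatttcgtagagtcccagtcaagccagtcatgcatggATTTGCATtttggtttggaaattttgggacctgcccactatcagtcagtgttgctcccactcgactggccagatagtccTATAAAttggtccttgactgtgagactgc
Sprr2f, plus strand, chr3:92364937-92365186: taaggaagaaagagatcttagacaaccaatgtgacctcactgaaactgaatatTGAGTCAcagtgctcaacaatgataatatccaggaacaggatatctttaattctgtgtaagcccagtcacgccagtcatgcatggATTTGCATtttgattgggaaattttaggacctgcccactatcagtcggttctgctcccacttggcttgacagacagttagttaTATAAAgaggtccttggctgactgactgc
Sprr1b, minus strand, chr3:92438780-92439029: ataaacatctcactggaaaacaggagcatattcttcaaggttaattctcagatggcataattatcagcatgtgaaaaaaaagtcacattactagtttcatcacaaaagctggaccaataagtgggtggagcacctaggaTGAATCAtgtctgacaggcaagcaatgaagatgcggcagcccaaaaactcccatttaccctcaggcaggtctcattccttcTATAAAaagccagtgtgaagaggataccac
Sprr1a, minus strand, chr3:92485882-92486131: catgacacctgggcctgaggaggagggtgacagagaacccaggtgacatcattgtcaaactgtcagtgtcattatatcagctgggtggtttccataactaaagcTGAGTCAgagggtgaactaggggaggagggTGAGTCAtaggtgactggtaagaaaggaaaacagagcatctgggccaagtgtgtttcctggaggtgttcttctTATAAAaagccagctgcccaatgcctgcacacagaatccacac
Sprr3, minus strand, chr3:92458721-92458970: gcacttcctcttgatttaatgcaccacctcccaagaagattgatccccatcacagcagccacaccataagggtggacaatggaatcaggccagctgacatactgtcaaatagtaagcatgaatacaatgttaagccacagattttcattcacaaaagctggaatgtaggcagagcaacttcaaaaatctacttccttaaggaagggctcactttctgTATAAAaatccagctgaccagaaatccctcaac
Sprr4, minus strand, chr3:92500494-92500743: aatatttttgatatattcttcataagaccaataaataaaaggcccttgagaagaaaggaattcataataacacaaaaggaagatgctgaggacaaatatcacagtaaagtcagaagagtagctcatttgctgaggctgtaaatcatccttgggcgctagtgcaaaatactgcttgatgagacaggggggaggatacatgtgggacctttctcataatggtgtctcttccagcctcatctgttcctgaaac

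All 5 Sprr2 genes with an entry (Sprr2b, Sprr2d, Sprr2e, Sprr2f and Sprr2h) held 1 AP-1 match, 1 octamer and 1 TATA match at nearly the same distances. AP-1 is the Fos and Jun dimer, and the octamer is bound by POU factors such as Pou2f3 of the upper epidermis. In these 5 genes the AP-1 match began at position -198 to -193 from the start, the octamer at -112 to -108 and the TATA match at -29. The longest stretch common to all 5 had 10 bases, ATTTGCATTT, and contains the octamer. None of the 4 other members with an entry held the octamer. Sprr1a held 2 AP-1 matches and Sprr1b 1, while Sprr3 and Sprr4 held none in this window. Among 32851 promoters of the same length, 6.75% held the AP-1 letters, 1.6% the octamer and 12.4% the TATA letters. The STAT letters (TTCNNNGAA) were in 0 of 9 members and in 7.02% of all promoters. The antioxidant response letters (TGACNNNGC) were in 2 members, Sprr1a, where they overlap an AP-1 match, and Sprr2f, and in 10.2% of all. Sprr4's annotated start is an ATG, so its window may not lie before a transcription start. The Sprr1b window begins at 92438780, while the RefSeq gene on the minus strand reaches 92438817. That window thus overlaps the annotated gene, and its TATA match lies in the overlap.

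The upstream stretches of Sprr2d and Sprr2e were 88.9% identical (224 of 252 aligned positions), the closest pair, and those of Sprr2e and Sprr2f 72.6%. Sprr1a and Sprr1b shared 52.2%. These matches and identities describe letters and do not show binding.

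**Figure D1:**
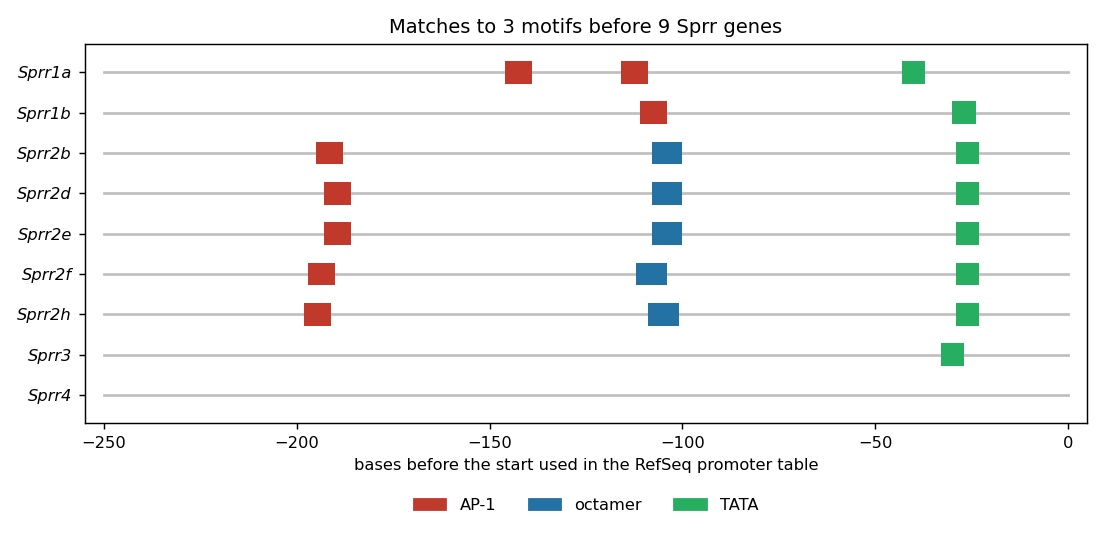
Matches to the AP-1 (red), octamer (blue) and TATA (green) letters in the 250 bases before the start of 9 Sprr genes; the x axis gives bases from the start in the RefSeq table. The 5 Sprr2 genes share 1 arrangement, with AP-1 from -198 to -193 and the octamer from -112 to -108, and Sprr4 has no match to any of the 3.

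The first comparison asked how the family differed with IMQ over the 4 pairs. All 6 Sprr2 members and Sprr1b rose, by 2.13 to 5.41 log2 units, or 4.4-fold to 42.7-fold. Over the 3 pairs without alloferon, Sprr2d rose 71.6-fold in place of 42.7-fold and Sprr1b 29.2-fold in place of 15.5-fold. Sprr1a, Sprr3 and Sprr4 did not pass. Thus 7 of 10 members rose and 0 fell in limma at an adjusted p under 0.05, where 1.9% of all genes rose and 1.19% fell. The median of the 10 members was 3.0, against -0.01 for all genes. For the same 7 members every IMQ array read above every array without IMQ, which was so for 5.96% of all genes. None lay below throughout, as 5.04% of all genes did. All 7 lost the call without the WT pair and without the KO B pair, when 0 and 2 of all genes passed. Without the KO plain pair 6 passed, all but Sprr1b, and 0.55% of all genes rose, and without the KO Allo pair the 7 did, where 3.72% rose.

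Sprr2d, an envelope precursor, gave the largest difference. It read 3.67 on WT_CTRL, 3.76 on KO_CTRL, 5.21 on KO_CTRL-B and 6.95 on KO_Allo. With IMQ it read 10.05 on WT_IMQ, 10.69 on KO_IMQ, 10.39 on KO_IMQ_B and 10.12 on KO_IMQ_Allo. The 4 IMQ arrays were thus within 0.64 of each other, while those without IMQ spanned 3.29, and the groups were 3.10 apart. The difference was 5.41 ± 0.56 log2 units (SE, n = 4 pairs, adjusted p = 0.0149 in limma), the highest of 22180 genes in the mean over the 4 pairs. It ranked 2 in the WT pair, 2 over the KO pairs and 3 over the pairs without alloferon. Without IMQ the WT and KO plain arrays were close to the tenth percentile of all genes on the array (3.5 and 3.53), where the RMA scale compresses differences.

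Sprr2e, whose upstream stretch is closest to that of Sprr2d, read 4.52, 5.09, 5.39 and 5.79 on WT_CTRL, KO_CTRL, KO_CTRL-B and KO_Allo. Its values were 8.66, 10.78, 9.32 and 8.98 on WT_IMQ, KO_IMQ, KO_IMQ_B and KO_IMQ_Allo. Here the IMQ arrays spanned 2.12, with KO_IMQ well above the other three. The difference was 4.24 ± 0.36 (adjusted p = 0.0124 in limma). Sprr2b read 5.65, 5.85, 6.45 and 7.24 without IMQ and 9.70, 10.67, 10.16 and 10.03 with it, in the same order of arms. It rose by 3.84 ± 0.29 (adjusted p = 0.0124), and its levels without IMQ followed the order of Sprr2d.

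The remaining Sprr2 members were dimmer. Sprr2h, described as a target of the stress factor Nrf2 in mouse keratinocytes, read 4.19, 5.54, 4.26 and 5.46 on WT_CTRL, KO_CTRL, KO_CTRL-B and KO_Allo, and 7.36, 8.87, 7.82 and 7.16 on the matching IMQ arrays. It rose by 2.94 ± 0.29 (adjusted p = 0.0136). Sprr2g, the transcribed pseudogene, read 2.37 to 3.42 without IMQ, and 5.41, 7.68, 6.11 and 5.23 on WT_IMQ, KO_IMQ, KO_IMQ_B and KO_IMQ_Allo. It rose by 3.05 ± 0.35 (adjusted p = 0.0157). Sprr2f rose least of the 7, by 2.13 ± 0.37 (adjusted p = 0.0379). Its levels were 3.04 to 3.40 without IMQ and 4.73, 6.75, 5.00 and 4.92 with it, so that 1 array, KO_IMQ, stood 1.75 above the next. Sprr2f was below the median of all genes on 3 of the 4 IMQ arrays. Without the KO plain pair its rise was 1.60.

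The Sprr1 genes, substrates of the keratinocyte transglutaminases, separated. Sprr1b read 6.05, 6.65 and 6.52 on WT_CTRL, KO_CTRL and KO_CTRL-B but 9.55 on KO_Allo. With IMQ it read 11.01, 11.43, 11.38 and 10.75 on WT_IMQ, KO_IMQ, KO_IMQ_B and KO_IMQ_Allo. All 4 IMQ arrays were high, and KO_Allo was the only array without IMQ near them, 1.20 below the lowest. The rise was 3.95 ± 0.62 (adjusted p = 0.0301 in limma), and 0.0928 with a trended and robust prior. Sprr1a was bright on all arrays, at 10.06, 9.28, 10.54 and 10.79 without IMQ and 10.07, 11.06, 10.75 and 10.60 with it. The groups overlapped, and only the KO plain pair differed by more than 1 log2 unit, by 1.78. Over 4 pairs the difference was 0.46 ± 0.31 (adjusted p = 0.497), with a 95% interval of -0.29 to 1.20. A rise of 2-fold is inside that interval.

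Sprr3, best known from the oral and oesophageal epithelium, stayed between 3.24 and 3.61 on all 8 arrays, around the tenth percentile of the genes. Its difference was 0.05 ± 0.09 (adjusted p = 0.848), and its sign turned to -0.16 when arrays were centred on their keratinocyte markers. At such a level the array could not show a small change. Sprr4, an envelope precursor of the epidermis, read 8.64, 8.85, 9.47 and 10.40 on WT_CTRL, KO_CTRL, KO_CTRL-B and KO_Allo, and 6.68, 8.83, 8.96 and 10.44 with IMQ. WT_IMQ was the lowest array by 1.96, and both alloferon arrays were the highest. The difference over the pairs was -0.61 ± 0.32 (adjusted p = 0.371).

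**Figure D2:**
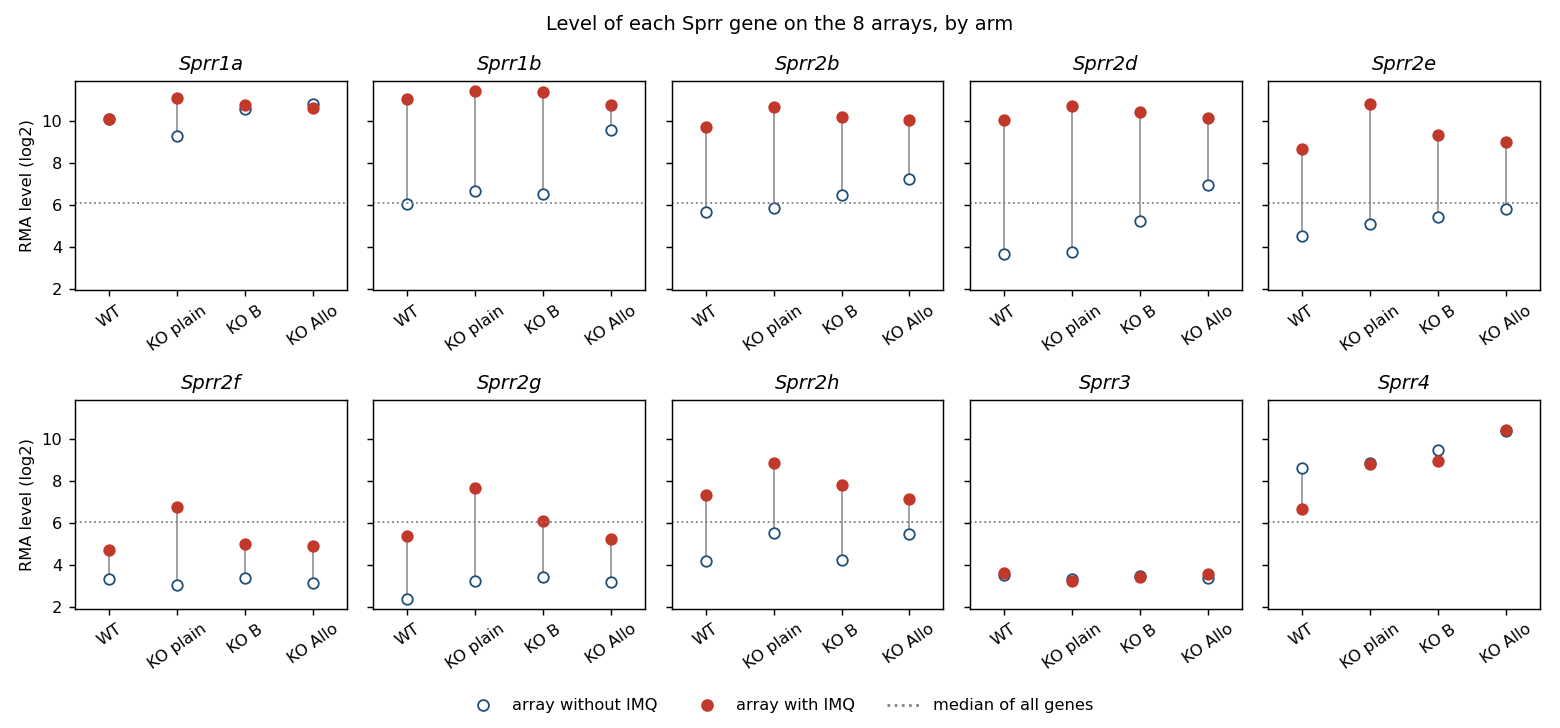
Level (log2 RMA value) of each of the 10 Sprr genes on the 8 arrays; each column is an arm, open circles are arrays without IMQ, filled circles arrays with IMQ, and the dotted line is the median of all genes. The 6 Sprr2 genes and Sprr1b have every filled circle above every open one, and Sprr1b without IMQ is at 9.55 in the KO Allo arm against 6.05 to 6.65 in the others.

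The next comparison set the members against each other by the size of their IMQ difference. Without IMQ, Sprr2f and Sprr2g were below the tenth percentile of genes on all 4 arrays, and Sprr2d was near it on WT_CTRL and KO_CTRL, so their differences may be understated and their places in the order are uncertain. The order ran from Sprr2d through Sprr2e, Sprr1b, Sprr2b, Sprr2g, Sprr2h, Sprr2f, Sprr1a and Sprr3 to Sprr4. Of the 9 neighbouring pairs of genes in that order, 2 kept their order in all 4 pairs of arrays. Sprr2b exceeded Sprr2g by 0.79 ± 0.30 log2 units (SD, n = 4 pairs of arrays) and Sprr2f exceeded Sprr1a by 1.67 ± 0.33. Sprr2d exceeded Sprr2e by 1.18 ± 0.93, with 2.25 in the WT pair and -0.02 in the KO Allo pair. Sprr2e and Sprr1b (0.29 ± 1.41), Sprr1b and Sprr2b (0.11 ± 1.24) and Sprr2g and Sprr2h (0.11 ± 0.83) differed by less than their spread over the pairs. The step from the 7 rising members to the other 3 was therefore present in every pair. The 7 were called from the same 4 differences, so this step is not a separate ground. Sprr2d ranked first of the members in 3 pairs and second in the KO Allo pair, whereas Sprr1b ranked between 2 and 4 in those 3 and 7 in the KO Allo pair.

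Likeness of profile was measured as the root mean square difference between 2 genes, each centred on its own mean over the 8 arrays. The closest members were Sprr2b and Sprr2e (0.43 log2 units) and Sprr2g and Sprr2h (0.47). Sprr2d and Sprr2e, the pair with the most similar upstream stretches, were 0.97 apart. Sprr1a was 0.56 from Sprr3 and 1.94 from Sprr1b, and Sprr4 was furthest from Sprr2d (3.19). Outside the family, the 3 genes nearest to the mean of the 10 profiles were the glucose transporter gene Slc5a1 (0.21), the kallikrein gene Klk9 (0.23) and Il1f8, which encodes IL-36 beta (0.30). Sprr2d was nearest to S100a8, a calprotectin subunit (0.37), Csta3 (0.58) and Serpinb3a (0.59). Sprr2b was nearest to Lce3e (0.21), Klk13 (0.36) and Cstdc6 (0.37), and Sprr2e to Lce3e (0.43), Lce3f (0.48) and S100a9 (0.49).

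Other members had other neighbours in profile. Sprr1b was nearest to Stfa1, a stefin gene (0.47), Krt16, a wound keratin gene (0.51), and Cstdc6 (0.53). Sprr2h was nearest to Lce3c (0.37), the defensin gene Defb3 (0.45) and Lce3d (0.46), and Sprr2g to Defb3 (0.50), Lce3d (0.58) and Uox (0.58). Sprr2f was nearest to Prss27 (0.31), Uox (0.36) and Lce3b (0.42). These are likenesses over 8 arrays and carry no test. Sprr4 was nearest to Serpina3j (0.28), Hsd3b6 (0.44) and Awat1 (0.54), the last a wax synthase of sebaceous glands. Sprr1a was nearest to Hoxc10 (0.17), Lrfn3 (0.24) and Plcd1 (0.24). Sprr3, at the bottom of the scale, was nearest to Fbxo45 (0.04), Rab10os (0.05) and Tbc1d16 (0.05). A flat profile is close to any other flat profile after centring, whatever the level.

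**Figure D3:**
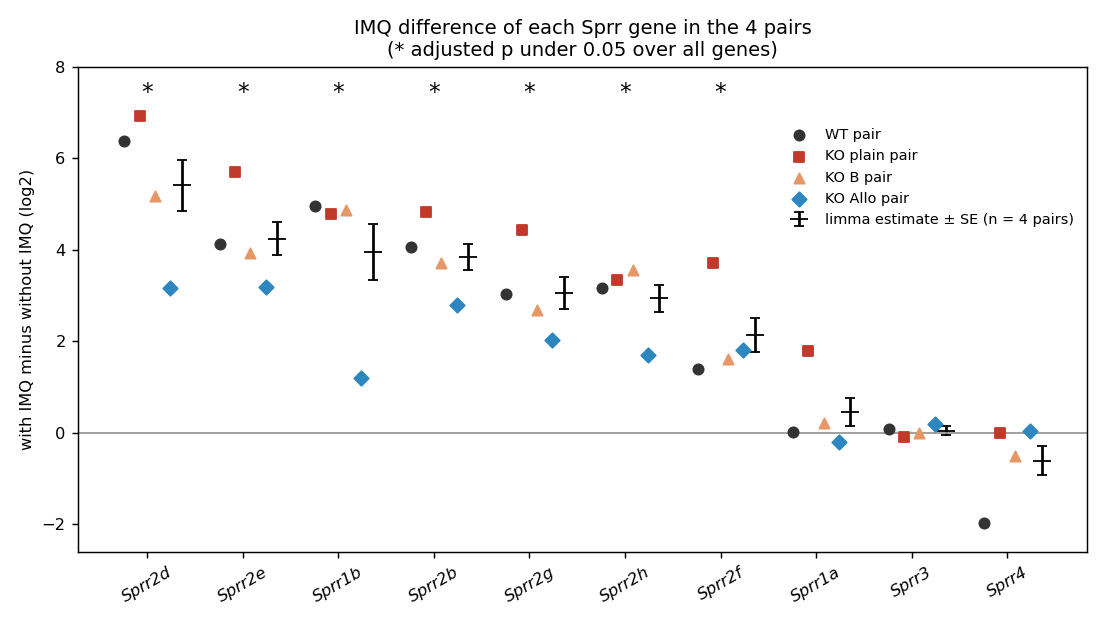
Difference with IMQ minus without IMQ (log2) of each Sprr gene in the WT, KO plain, KO B and KO Allo pairs, with the limma estimate and its SE over the 4 pairs; stars mark an adjusted p under 0.05 over all genes. The 7 starred genes lie between 2.13 and 5.41, and Sprr1b is at 1.20 in the KO Allo pair against 4.78 to 4.96 in the other 3.

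The effects of IMQ in the WT pair and in the KO pairs were set against each other in 1 contrast. Here 0 of 10 members passed in limma, where 0% of all genes passed (914 genes, among them 1 member, Sprr4, had an unadjusted p under 0.05). Sprr2d rose from 3.67 to 10.05 in the WT pair, a difference of 6.38, against 5.09 ± 0.67 over the 3 KO pairs. The WT minus KO difference was 1.29 ± 1.33 (95% interval -2.05 to 4.63). For Sprr2e it was -0.14 (-2.45 to 2.18), for Sprr2b 0.28 (-1.58 to 2.14), for Sprr2h 0.30 (-1.55 to 2.15) and for Sprr2g -0.01 (-2.24 to 2.22). Such intervals hold 2-fold differences in either direction, so they do not show that WT and KO respond alike. They take their spread from the KO pairs alone, since WT is 1 pair.

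Sprr4 was the member with the smallest p in that contrast. It read 1.96 lower with IMQ in the WT pair, and 0.01 and 0.51 lower in the KO plain and KO B pairs, with 0.04 higher in the KO Allo pair. The WT minus KO difference was -1.80 ± 0.30 log2 units (unadjusted p = 0.00128 and adjusted p = 0.983 in limma, 95% interval -2.54 to -1.06), and it does not pass over all genes. It was -1.97 to -1.70 when each KO pair was left out in turn, always with the same WT pair. WT is 1 pair, so the SE and interval come from the KO pairs and hold no WT spread. Sprr1b had a WT minus KO difference of 1.35 ± 1.48, which fell to 0.14 without the KO Allo pair. Sprr2f measured -0.97 ± 0.84 and Sprr1a -0.59 ± 0.76.

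Taken separately, the KO pairs and the WT pair called 0 of 10 members each, where 0% of all genes were called in either. The unadjusted p was under 0.05 for 7 members in each, and for 3093 genes over the KO pairs and 2396 in the WT pair. Over the KO pairs Sprr2e measured 4.27 ± 0.46 (adjusted p = 0.0775), Sprr2b 3.77 ± 0.37 (adjusted p = 0.0775) and Sprr1b 3.61 ± 0.74 (adjusted p = 0.153). Without the KO Allo pair 6 members rose in KO and 2 in WT, where 1.06% and 0.0947% of all genes rose. Without the KO plain pair it was 4 and 2, where 0.0992% and 0.0541% did. With arrays centred on their keratinocyte markers, the 7 members that rose over the 4 pairs were called higher in KO. There 1.58% of genes rose and 5.0% fell. These calls came with a smaller SE and not with larger differences. Sprr2d measured 4.87 ± 0.26, against 5.09 ± 0.67 without that centring. It takes 1 shift per array from every gene, so these calls add no support beyond the uncentred fit. Median centring called 0 members in KO. In the WT pair Sprr4 measured -2.10 with keratinocyte centring, against -1.96 without it, and Sprr2f measured 1.26. WT is 1 pair, so its fits take their spread from the KO pairs and hold no WT spread.

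On single arrays, which have no replicate check, KO and WT were compared within each IMQ state. Without IMQ, KO_CTRL was higher than WT_CTRL by 1 log2 unit or more for 1 member, Sprr2h (1.35), where 0.446% of genes were. KO_CTRL-B was higher for 2, Sprr2d (1.54) and Sprr2g (1.05), where 0.532% of genes were. Sprr2g was below the tenth percentile of genes on WT_CTRL and KO_CTRL-B (2.37 and 3.42), where a difference could not be read. Sprr2d was near it on WT_CTRL (3.67). The 2 KO arrays therefore did not share a member, and Sprr2h was 0.07 higher on KO_CTRL-B than on WT_CTRL. With IMQ, KO_IMQ was higher than WT_IMQ for 5 members, Sprr2g (2.26), Sprr4 (2.15), Sprr2e (2.12), Sprr2f (2.02) and Sprr2h (1.51), where 0.712% of genes were. KO_IMQ_B was higher for Sprr4 alone (2.28), where 0.681% of genes were. Sprr4 was thus the member for which both KO arrays with IMQ exceeded the WT array by that margin, which was so for 0.203% of genes.

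The arrays KO_CTRL and KO_CTRL-B differ in the letter B alone. KO_CTRL-B was higher for Sprr2d (1.45) and Sprr1a (1.26), 2 members where 1.46% of genes were as much higher, and lower for Sprr2h (-1.28), 1 member where 1.38% were. Differences of this size thus arose between 2 arrays with no stated difference in treatment. Their summed hair follicle markers read 12.16 and 14.72 and their skeletal muscle markers 15.24 and 13.25, in that order, and the part of either in these differences was not tested.

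The KO_IMQ array stood apart for part of the family. It was the highest of the 4 IMQ arrays for 8 of 10 members, and for 24.0% of all genes. Its summed hair follicle markers, at 9.40, were the lowest of the 4, which was not tested against the Sprr levels. The excess was uneven. KO_IMQ_B was lower than KO_IMQ by 1.75 for Sprr2f, 1.57 for Sprr2g, 1.46 for Sprr2e and 1.05 for Sprr2h, which are 4 members where 0.293% of genes were as much lower. For Sprr1b, Sprr2d, Sprr1a and Sprr2b the same difference was 0.05, 0.30, 0.31 and 0.52. Sprr2e to Sprr2h are consecutive in the gene order, and the Sprr2j-ps pseudogene next to them read 8.32 on KO_IMQ and 6.96 on KO_IMQ_B. Shared probes among these copies were not tested.

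The comparison with alloferon asked whether the IMQ difference in the KO Allo pair departed from that in the other 3 pairs. Sprr1b passed this test: its IMQ difference was 1.20 in the KO Allo pair and 4.87 ± 0.11 (SE, n = 3 pairs) in the others. The change was -3.67 ± 0.22 log2 units (adjusted p = 0.0251 in limma), with a smaller difference than in each of the 3 other pairs. The KO Allo arm is 1 pair, so the SE comes from the other 3 pairs, which lay between 4.78 and 4.96, and holds no spread of the alloferon arm itself. It was 1 of 2 genes called lower, or 0.00902% of those tested, and 0% were called higher. The other gene was Mmp13, a collagenase. The call was lost without the WT pair (-3.62, adjusted p = 0.302), when 0% of all genes passed. Sprr2d measured -2.99 ± 0.63 (adjusted p = 0.281). It passed without the KO B pair (-3.48, adjusted p = 0.0401), where 0.0857% of all genes were lower and 0.0225% higher. Sprr2h measured -1.65 ± 0.25 (adjusted p = 0.189) and Sprr2b -1.41 ± 0.43 (adjusted p = 0.461).

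Of the 7 rising members, 6 had their smallest IMQ difference in the KO Allo pair, all but Sprr2f. Of all 421 genes that rose, 67.9% did, so a smaller difference in that pair was frequent among rising genes. For Sprr1b the smaller difference lay on the array without IMQ. KO_Allo exceeded KO_CTRL by 2.90 and KO_CTRL-B by 3.03 log2 units, and KO_IMQ_Allo was 0.68 below KO_IMQ and 0.63 below KO_IMQ_B. Sprr2d was likewise higher on KO_Allo, by 3.19 and 1.74, and 0.56 and 0.26 lower on KO_IMQ_Allo. Over the family, KO_Allo was at least 1 log2 unit higher for 5 members against KO_CTRL, where 1.6% of genes were, and for 3 against KO_CTRL-B, where 0.564% were. It was the highest of the 4 arrays without IMQ for 6 members, and for 27.3% of all genes. Sprr1b and Sprr2d were the 2 members at least 1 log2 unit higher on KO_Allo than on both other KO arrays without IMQ, where 0.307% of genes were. Sprr2f and Sprr2g were below the tenth percentile of genes on all the arrays without IMQ, where a difference could not be read. A probe set that names Sprr2b with the 3 Sprr2a genes read 11.43 on KO_Allo against 7.63 on KO_CTRL and 9.63 on KO_CTRL-B. On KO_IMQ_Allo, KO_IMQ and KO_IMQ_B it read 11.51, 11.75 and 12.02. One that names the 3 Sprr2a genes alone read 7.49 on KO_Allo and 7.95 on KO_IMQ_Allo. In the KO plain pair it read 3.37 and 8.25, and in the KO B pair 5.14 and 8.38. Sprr1b was thus not alone in a small difference in the KO Allo pair, though these probe sets were not tested.

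With IMQ, Sprr4 was the member that was higher on KO_IMQ_Allo than on both other KO arrays by 1 log2 unit or more, by 1.61 and 1.49, where 0.189% of genes were (0.676% against KO_IMQ and 0.5% against KO_IMQ_B). It read 10.40 on KO_Allo and 10.44 on KO_IMQ_Allo, against 8.83 to 9.47 on the other 4 KO arrays, and the groups did not overlap, as was so for 6.48% of all genes in that direction. Against KO_IMQ, 4 members were lower on KO_IMQ_Allo by 1 log2 unit or more, Sprr2g (-2.44), Sprr2f (-1.83), Sprr2e (-1.80) and Sprr2h (-1.71), where 0.807% of genes were. Against KO_IMQ_B 0 members were, where 0.771% of genes were, while 0.307% were lower against both, and these 4 differed by -0.87, -0.08, -0.34 and -0.67. The lower Sprr2 levels with alloferon under IMQ therefore depend on which KO array is the comparator. These are 1 array against 1, and no WT array had alloferon.

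**Figure D4:**
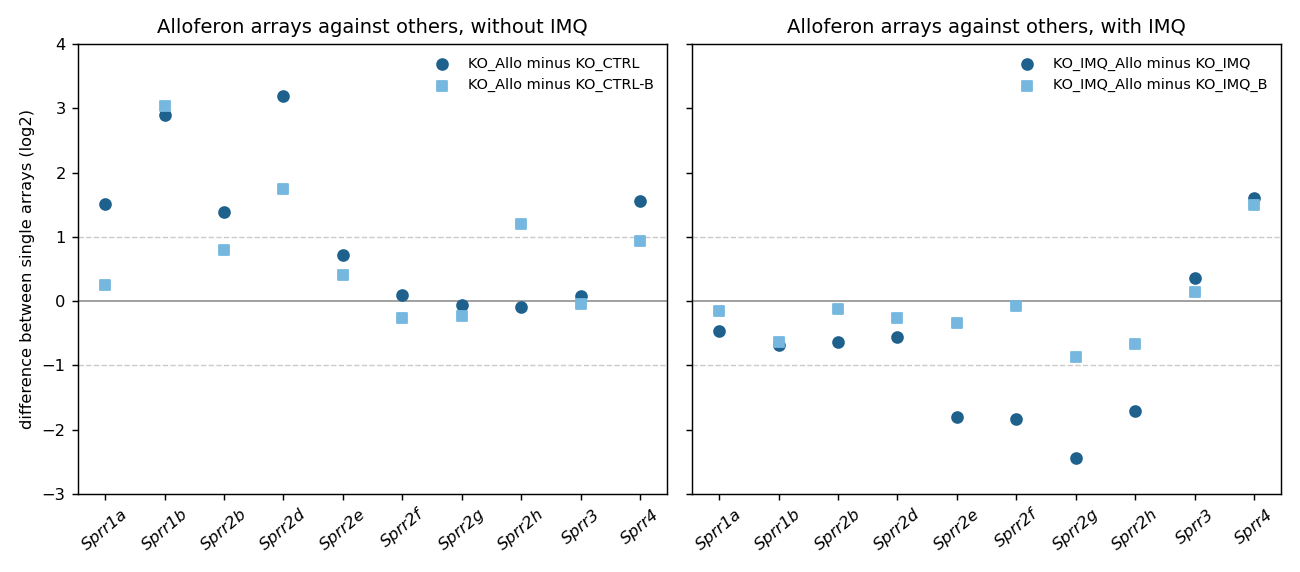
Differences between single arrays (log2) for each Sprr gene, KO_Allo against the 2 other KO arrays without IMQ (left) and KO_IMQ_Allo against the 2 other KO arrays with IMQ (right); dashed lines mark 1 log2 unit. Sprr1b is 2.90 and 3.03 higher on KO_Allo, and Sprr4 is 1.61 and 1.49 higher on KO_IMQ_Allo.

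Other cornified envelope genes and cross-linking enzymes were read beside the family. Of 35 measured genes, 14 rose and 1 fell over the 4 pairs, where 1.9% of all genes rose and 1.19% fell. Their median was 0.85, against -0.01 for all genes. The largest were Lce3f (4.31 ± 0.35, adjusted p = 0.0124), Rptn, which encodes repetin (4.19 ± 0.59, adjusted p = 0.0250), Lce3a (3.90 ± 0.49, adjusted p = 0.0206) and Lce3e (3.85 ± 0.41, adjusted p = 0.0157). Prr9, which belongs to hair as well as to the epidermal complex, fell by 2.74 ± 0.44 (adjusted p = 0.0320). The partners to which Sprr proteins are cross-linked did not pass: Lor (loricrin) measured 0.23 ± 0.21 (adjusted p = 0.617) and Ivl (involucrin) 0.42 ± 0.14 (adjusted p = 0.179). Of the transglutaminase genes Tgm5 rose by 0.81 ± 0.12 (adjusted p = 0.0252), whereas Tgm1 measured 0.88 ± 0.21 (adjusted p = 0.0824) and Tgm3 2.06 ± 0.47 (adjusted p = 0.0700). Lor, Ivl and the transglutaminase genes were picked for their role and named after their values were seen.

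Of 20 measured transcription factor genes of keratinocyte differentiation, 4 rose and 0 fell, where 1.9% of all genes rose and 1.19% fell. The median of the 20 was 0.36. Those that rose were the Ets factor gene Ehf (2.09 ± 0.22, adjusted p = 0.0157), Grhl3 (1.11 ± 0.10, adjusted p = 0.0124), Cebpb (0.56 ± 0.11, adjusted p = 0.0472) and Klf4 (0.51 ± 0.09, adjusted p = 0.0419). Ovol1 measured 0.62 ± 0.19 and Nfe2l2, which encodes Nrf2, 0.59 ± 0.15 (adjusted p = 0.145 and 0.0909). Among AP-1 subunits Junb measured 0.41, Fosl2 0.32, Jun 0.26, Fos 0.25, Jund 0.08 and Fosb -0.45, and the POU factor gene Pou2f3 measured 0.24. None of these 7, named for the motifs after their values were seen, passed, and an RNA level says nothing of a factor's activity. Fosl1, another listed AP-1 subunit, was not among the measured genes.

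Along the chromosome, the rise was not continuous. From Sprr2b to Sprr2h all 6 members rose, and next to them Sprr2j-ps, a pseudogene, rose by 2.52 ± 0.47 (adjusted p = 0.0462) while Sprr2k measured 1.14 ± 0.31 (adjusted p = 0.108). Sprr1b follows, and then Sprr3, Sprr1a, Sprr4 and Ivl, of which none passed. On the other side Lelp1 measured 0.01 and Lor did not pass. Further out, some genes on both sides rose in limma. Beyond Lor, Pglyrp3 rose by 1.75 ± 0.19 (adjusted p = 0.0157), and beyond Ivl, Lce1e by 2.07 ± 0.34 (adjusted p = 0.0347). The 32 measured genes that are not members were those between them and 15 on either side. Of these, 10 rose and 2 fell, where 1.9% of all genes rose and 1.19% fell. The median of the 32 was 0.51. The largest were S100a8 (5.34 ± 0.47), S100a9 (4.70 ± 0.36), S100a3 (-2.83 ± 0.45), Prr9 and Sprr2j-ps. Of these 32 genes, 16 are also in the cornified envelope list.

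**Figure D5:**
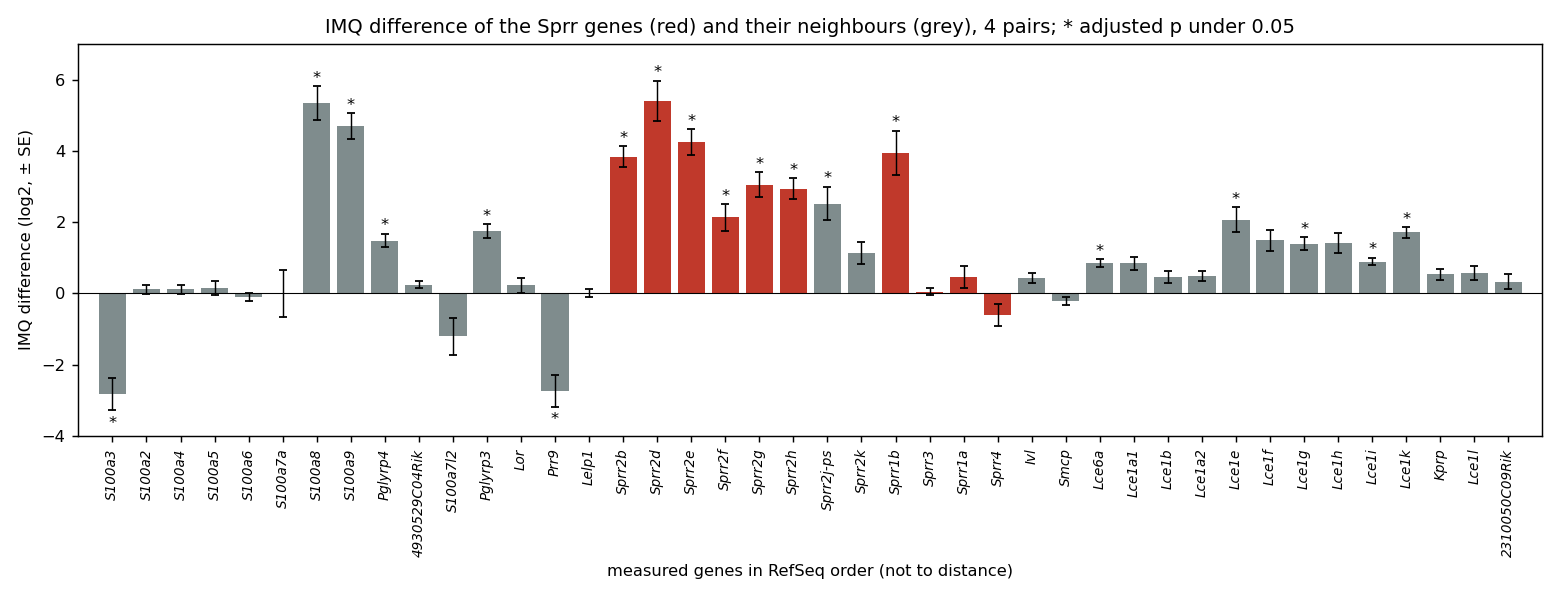
IMQ difference (log2, limma estimate with SE over the 4 pairs) of the Sprr genes (red) and of the measured genes around them (grey), in RefSeq order and not to distance; stars mark an adjusted p under 0.05. The starred run from Sprr2b to Sprr2j-ps is followed by Sprr2k at 1.14, Sprr1b at 3.95, and Sprr3, Sprr1a, Sprr4 and Ivl between -0.61 and 0.46.

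Markers of other skin structures moved with IMQ as well. The counts below stand beside 1.9% of all genes that rose and 1.19% that fell. In bulk skin, fewer cells of a type and less RNA per cell cannot be told apart. Of 16 measured hair follicle markers 15 fell, and their summed level (log2) was 12.16 to 14.72 without IMQ and 9.40 to 12.77 with it. Of 15 skeletal muscle markers 4 fell, at a summed level of 12.93 to 15.24 without and 12.32 to 13.11 with IMQ. For 6 adipocyte markers, of which 0 passed, the ranges were 10.06 to 11.84 and 9.94 to 11.11. Of 7 neutrophil markers 1 rose (7.78 to 8.72 without, 9.04 to 9.89 with IMQ), and of 6 macrophage markers 3 rose (11.16 to 11.43 and 11.78 to 12.37). Fibroblast markers, 0 of 5 passing, read 13.84 to 14.08 and 13.68 to 14.12. Their part in the Sprr result was not tested. The keratinocyte markers, where 0 of 10 passed, had a mean that differed by 0.14, 0.33, 0.36 and -0.02 in the WT, KO plain, KO B and KO Allo pairs. With each array centred on that mean, the same count of 7 members rose, while the median of all genes moved to -0.21 and 437 genes rose and 1256 fell, against 421 and 264 without that centring. On KO_Allo, where Sprr1b and Sprr2d were high without IMQ, the neutrophil sum was 8.72 and the keratinocyte sum 14.12, the highest of the 4 arrays without IMQ in both, and the muscle sum was 12.93, the lowest.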

How the data were processed

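The authors deposited log2 expression values per probe set (41345), made by RMA in Affymetrix Power Tools, per the labels. RMA corrects background, gives all arrays 1 distribution and compresses differences of dim genes. Precision is limited by the 8 arrays. R 3.3.2 is named in the submitters' processing notes without a role. Of the probe sets, 23521 had 1 gene symbol in the platform annotation, 1814 several and 16010 none. The probe set with the highest mean stood for a gene. All 10 members matched RefSeq (GRCm38.p6). Differences were fitted in limma 3.58.1 (R 4.3.3) over 22180 genes, with a level per arm and 1 IMQ effect (3 residual degrees of freedom), or separate effects (2), moderated by eBayes with Benjamini-Hochberg adjustment over all genes. The IMQ fit over all pairs and the WT minus KO contrast were run on simulated data with a common spread for all genes. The check required mean estimates close to the planted shifts. It did not cover the Allo contrast or p-values under a spread that differs by gene. Upstream stretches were aligned globally in Biopython 1.88. Pairs here come from the labels' treatments, not from replicate numbers. Named genes are the 10 members, Il22ra1, the 3 profiles nearest to each member and to their mean, and the 5 largest differences of each pathway or neighbour list. Lor, Ivl, the Tgm genes, Klf4, the AP-1 and Pou2f3 genes, Sprr2k, Lelp1, Pglyrp3, Lce1e and Mmp13 are outside that rule. They were named after their values were seen. Members and lists were chosen with earlier results of these data known. Alternatives changed the probe set rule, the filter on dim genes, the variance prior, the arm levels, the scaling, the reading of B and the pairs used.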

Additional observations from a re-analysis of the deposited data

Results flagged for a closer look

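Sprr1b was flagged because its IMQ difference of 1.20 log2 units in the KO Allo pair lay far from the 4.78 to 4.96 of the other 3 pairs. The contrast of that pair with the other 3, -3.67 log2 units in limma, reads the same 4 differences and is not a separate ground. Sprr2f was flagged because its IMQ difference of 3.71 in the KO plain pair lay far from the other 3, which were 1.40 to 1.80. The check of single values was run on 10 members, and chance flags about 1 in 20 such sets.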

How the results depend on the processing

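The count of 7 rising members was 5 to 7 under the alternatives that kept all arrays, and 0 to 7 when each pair was left out. It was 5 of the 7 tested without dim genes, where 5.52% of genes rose. With a trended and robust prior it was 5, having lost Sprr1b and Sprr2f, where 2.3% of genes rose. Without arm levels it was 7, where 2.51% rose. No paired analysis by replicate number was possible because each label has 1 array; arm levels already pair the arrays, and without them (no replicate block) 7 members passed. The count of all genes, 685, was 1028 without dim genes, 1693 with keratinocyte centring, 454 with B read as a second array, and 0 to 1307 when each pair was left out. Leaving out pairs gave 0 to 6 members in KO, 0 to 2 in WT, 0 to 2 for the Allo contrast and 0 to 0 for WT minus KO. The highest counts came where 1.06% of all genes rose in KO and 0.0541% or 0.0947% in WT. For the Allo contrast the highest count came where 0.0857% of all genes were lower. Keratinocyte centring gave 7 in KO, all higher (1.58% of all genes rose), and 7 in WT, of which 6 were higher (1.13%) and Sprr4 lower (1.72% fell). In KO the calls with keratinocyte centring came with a smaller SE and not with larger differences, and median centring called 0. Signs turned for uncalled values alone. Sprr3 measured -0.16 over the 4 pairs with keratinocyte centring, and -0.00 to 0.09 when each pair was left out. Sprr2f in the Allo contrast spanned -0.86 to 0.29. WT minus KO spanned -0.21 to 0.80 for Sprr2b, -0.68 to 0.57 for Sprr2e, -0.52 to 0.67 for Sprr2g (0.07 with keratinocyte centring), -0.28 to 0.65 for Sprr2h and -0.01 to 0.13 for Sprr3. The cause was not tested. Sprr3, Sprr2f and Sprr2g are dim, which limits what the arrays can show for them.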
